A study of Mus musculus with 19 samples.

Results

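The genes described here are the integrin subunits, the laminin chains, the nidogens and the basement membrane proteoglycans perlecan (Hspg2) and agrin (Agrn). They were taken by a rule on the gene symbol, which was itself chosen with earlier results of these data known. The rule gave 41 genes of the 24343 gene symbols in the tables. They were 18 integrin alpha subunits, 8 integrin beta subunits, 11 laminin chains, 2 nidogens and 2 heparan sulfate proteoglycans. Their RNA was measured in stromal, basal and luminal cells sorted by flow cytometry from mouse anterior prostates, in 19 libraries. Toxin-treated Lgr5-DTR-eGFP mice, called Lgr5-DTR below, gave 4 stromal, 3 basal and 3 luminal libraries, and wild type mice gave 3 libraries of each population. In Lgr5-DTR mice the Lgr5 gene drives a diphtheria toxin receptor, so that toxin kills cells expressing Lgr5, a receptor for R-spondins. The comparison asks how each population differs once Lgr5-expressing cells have been ablated. The labels name bought C57BL/6 mice, without tying them to the wild type group, and Lgr5-DTR-eGFP mice that came from another laboratory. They do not say whether wild type mice were given toxin, so genotype, toxin and source cannot be told apart. Age, toxin schedule and sorting antibodies are not given in the sources used here. Nor do the labels tie libraries to single animals: each p-value below reflects variation among the libraries, which may be technical.

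Laminins are heterotrimers of an alpha, a beta and a gamma chain that polymerise into the sheet of the basement membrane, on which epithelial cells stand and which also surrounds muscle and Schwann cells. Nidogens and perlecan tie the laminin sheet to the type IV collagen network, and agrin links laminin to receptors on the cell. Integrins are alpha-beta pairs that hold cells to this matrix and signal through it. In stratified and pseudostratified epithelia, integrin alpha6-beta4 anchors basal cells to laminin with alpha3 and beta3 chains in hemidesmosomes, while alpha3-beta1 binds it outside them. Integrin alpha5-beta1 is the classical fibronectin receptor, and alpha7-beta1 is a laminin receptor best known from muscle. Levels below are FPKM, fragment counts scaled to transcript length and library size, summed over the transcripts of a gene.

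The promoters of 4 members are shown because their genotype difference was not the same in basal and luminal cells (tested further on). RefSeq gives the 250 bases before each start on build GRCm38.p6, printed in the direction of transcription. Capitals mark the GC box GGGCGG or its complement CCGCCC. The Nid1 sequence is chr13:13437352-13437601 (plus strand), that of Itga5 chr15:103366792-103367041 (minus strand), that of Lamb1 chr12:31265043-31265292 (plus strand) and that of Agrn chr4:156197489-156197738 (minus strand).
Nid1: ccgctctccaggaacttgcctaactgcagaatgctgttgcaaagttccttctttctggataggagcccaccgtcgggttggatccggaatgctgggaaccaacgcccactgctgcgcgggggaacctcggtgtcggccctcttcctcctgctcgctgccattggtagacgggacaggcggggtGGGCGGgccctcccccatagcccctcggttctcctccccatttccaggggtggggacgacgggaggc
Itga5: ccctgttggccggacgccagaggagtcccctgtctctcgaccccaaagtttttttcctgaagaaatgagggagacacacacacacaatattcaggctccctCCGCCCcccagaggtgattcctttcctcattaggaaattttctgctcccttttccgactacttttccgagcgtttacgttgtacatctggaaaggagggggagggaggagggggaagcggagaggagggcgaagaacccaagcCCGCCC
Lamb1: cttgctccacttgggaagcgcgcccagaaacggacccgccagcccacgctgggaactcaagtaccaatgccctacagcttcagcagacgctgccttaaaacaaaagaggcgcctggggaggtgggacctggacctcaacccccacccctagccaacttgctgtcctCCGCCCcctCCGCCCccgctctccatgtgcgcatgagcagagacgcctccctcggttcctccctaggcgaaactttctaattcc
Agrn: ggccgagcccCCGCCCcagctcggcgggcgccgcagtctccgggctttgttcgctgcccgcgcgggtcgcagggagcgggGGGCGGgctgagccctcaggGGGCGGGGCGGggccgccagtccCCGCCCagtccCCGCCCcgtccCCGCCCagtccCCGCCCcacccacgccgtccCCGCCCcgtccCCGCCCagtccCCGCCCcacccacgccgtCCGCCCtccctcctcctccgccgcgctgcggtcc

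All 4 windows held a GC box. Nid1 had 1, Itga5 and Lamb1 had 2 each, and Agrn had 12, the adjoining ones running together in the capitals above. Agrn has another RefSeq window, chr4:156186260-156186509, not printed here, which held 2. Of the members, 26 matched the RefSeq table, with 30 promoters. A GC box was in 13 of these promoters, from 11 members, and in 33.0% of 32536 promoters of this length. The letters GGAATG, bound by TEAD factors, were in the windows of 4 matched members (Itga10, Itgb1, Lamb3 and Nid1) and in 12.6% of all promoters. The AP-1 letters TGANTCA were in 1 member's window (Itgax) and in 6.73% of all promoters. Both strands were searched, and matches of different motifs could overlap. A match describes these letters and not a site in use.

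Coverage on transcripts came to between 5.26 and 9.38 gigabases a library, with a median of 7.73, and each library had 9209 to 10819 genes at 1 FPKM or more. Lgr5 was 0.971, 0.869, 1.32 and 0.501 FPKM in Lgr5-DTR stromal cells, against 29.1, 25.8 and 77.6 FPKM in wild type stromal cells (log2 difference −4.40, limma adjusted p = 0.000318). In the other 2 populations it was below 2 FPKM in every library. In luminal cells Lgr5 was 0.554, 0.671 and 0.610 FPKM in Lgr5-DTR and 1.99, 1.54 and 1.92 FPKM in wild type. These groups did not overlap, and the difference did not pass the test (log2 difference −0.80, limma adjusted p = 0.0779). The keratins and other basal markers summed to 10417 to 15453 FPKM in the basal libraries, the luminal markers to 19138 to 27249 FPKM in Lgr5-DTR and 28271 to 32121 FPKM in wild type luminal libraries, and the fibroblast markers to 5837 to 17170 FPKM in the stromal libraries. The basal libraries also carried luminal markers, with sums of 10317 to 15437 FPKM in Lgr5-DTR and 9050 to 9526 FPKM in wild type. In the stromal libraries the fibroblast sum was 5837 to 7918 FPKM in Lgr5-DTR and 13768 to 17170 FPKM in wild type, with 4 of 10 markers called lower, and the smooth muscle sum was 410 to 513 FPKM in Lgr5-DTR and 297 to 359 FPKM in wild type, with none of 9 called. In bulk samples, fewer cells of a type and less RNA per cell cannot be told apart. Endothelial markers summed to at most 48.7 FPKM in any library, a sum over 12 genes.

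Basal and stromal cells each carried their own adhesion set. Of the 41 members, 33 reached 1 FPKM in at least 1 library and 8 did not: Itga10, Itga4, Itgad, Itgae, Itgal, Itgam, Itgax and Itgb2, most of them subunits of leukocyte integrins. In 25 members 1 or more group means came to 5 FPKM or higher. In wild type, 13 of the 25 were highest in basal cells, 11 in stromal cells and 1, Itga1, a collagen-binding subunit, in luminal cells. Itgb5 was placed in basal cells on near-equal wild type means, 29.0 FPKM in basal and 28.4 FPKM in stromal cells. So was Lamc1 in stromal cells, with 39.0 FPKM there and 37.7 FPKM in basal cells. The map of log2 levels by library shows the basal and stromal sets as blocks.

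**Figure D1:**
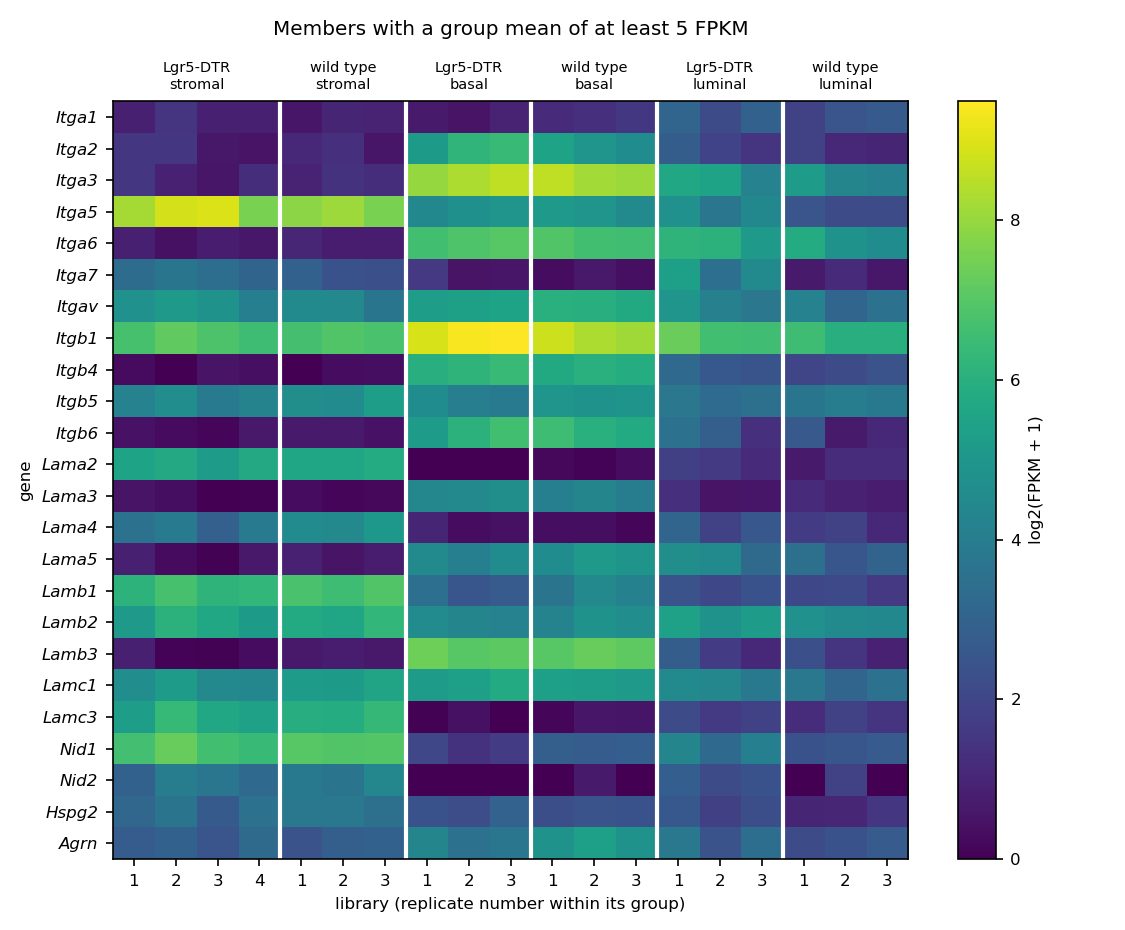
Level of 24 of the 25 members whose mean came to 5 FPKM or higher in some group (rows) in each of the 19 libraries (columns, grouped by genotype and population), as log2(FPKM + 1) on the colour scale. Itga3, Itga6, Itgb4, Itgb6, Lama3 and Lamb3 are bright in the basal columns, and Itga5, Lama2, Lamb1, Lamc3 and Nid1 in the stromal columns.

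Among wild type populations, 28 members could be tested (limma on log2(FPKM + 1), 9 libraries in 1 fit, Benjamini-Hochberg over all 11565 genes tested, threshold 0.05). Basal cells were higher than luminal cells in 19 members and lower in 4, where 25.5% of all genes were called higher and 36.8% lower, 62.3% in either direction. Stromal cells were higher than basal cells in 12 and lower in 13, where 29.2% and 27.8% of all genes were called, 57% in all. Stromal cells were higher than luminal cells in 16 and lower in 8, where 28.5% and 39.3% were called, 67.8% in all. The median member differed by 1.77 between basal and luminal cells on the log2 scale, against −0.14 over all genes. Of the 72 member calls in these 3 comparisons, 68 were kept whichever library was left out; Itga9 between stromal and basal cells, and Itgb1, Itgb8 and Lamb3 between stromal and luminal cells, were not.

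The hemidesmosomal laminin and its receptors were basal. Lamb3, the laminin beta3 chain, was 128, 156 and 139 FPKM in wild type basal cells and 3.99, 1.72 and 0.840 FPKM in wild type luminal cells, a log2 difference of 5.60 ± 0.29 (SE, limma adjusted p = 2.34e-08). The groups did not overlap. Lama3, the alpha3 chain, was 15.9, 18.9 and 14.7 FPKM in basal and 1.22, 0.847 and 0.714 FPKM in luminal cells (log2 difference 3.19).

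Among the receptors, Itgb4, the beta4 subunit of hemidesmosomes, was 52.8, 64.3 and 57.7 FPKM in wild type basal and 2.97, 3.45 and 4.42 FPKM in wild type luminal cells (log2 difference 3.69). Its gene overlaps Galk1, which was listed at 0 in every basal library and at 26.6 to 36.7 FPKM in every luminal one, so the division of reads between these 2 genes is uncertain. Itga6, which encodes the partner of beta4, differed less: it was 120.0, 96.5 and 94.7 FPKM in basal and 56.6, 27.7 and 23.8 FPKM in luminal cells (log2 difference 1.59). The protein of Itga6 is CD49f, a common antigen for sorting prostate epithelium, and whether it was used here is not given in the sources used here. Itga3, the laminin-binding alpha3 subunit, was the highest alpha subunit in basal cells, at 387, 287 and 267 FPKM against 36.7, 19.0 and 16.8 FPKM in luminal cells (log2 difference 3.71). Itgb6, whose product activates latent TGF-beta, differed by 4.65, and Itga2, a collagen receptor subunit, by 3.73. Smaller basal excesses over luminal cells were 2.60 for Itga5, 2.58 for Agrn, 2.29 for Itgav, 2.23 for Itgb1 and 2.20 for Lamb1. The 4 members lower in basal than in luminal cells were Lama4 (−1.26), Lamc3 (−1.09), Itga1 (−1.01) and Lama2 (−0.83). In stromal cells, Itga3 was 0.868 to 1.63 FPKM and Lamb3 0.549 to 0.664 FPKM, and stromal cells were lower than basal cells by −7.10 and −6.47 on the log2 scale. The other large differences of stromal minus basal cells were −5.87 for Itga6, −5.65 for Itgb4, −5.51 for Itgb6, −4.05 for Itga2 and −4.21 for Lama5, the alpha chain of many mature epithelial basement membranes.

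The stromal set held mostly laminin chains outside the hemidesmosomal laminin, the nidogens and perlecan, with Itga5 and Itga7. Lama2, the alpha chain of muscle and nerve sheath laminins, was 48.7, 48.6 and 56.3 FPKM in wild type stromal cells and 0.149, 0.0632 and 0.245 FPKM in wild type basal cells (log2 difference 5.50 ± 0.20, adjusted p = 5.11e-10). Nid1, nidogen-1, was 128, 120 and 122 FPKM in stromal cells, against 6.34, 5.71 and 6.13 FPKM in basal and 4.22, 4.87 and 5.68 FPKM in luminal cells, which differed from stromal cells by 4.14 and 4.40. Lamc3 differed by 5.62 from basal and 4.53 from luminal cells, Lama4 by 4.43 and 3.18, and Lamb1 by 2.64 and 4.84. Itga5, the fibronectin receptor subunit, was 228, 272 and 193 FPKM in stromal, 33.7, 30.2 and 22.5 FPKM in basal and 4.66, 3.51 and 3.48 FPKM in luminal cells, and stromal minus luminal cells was 5.56. Against luminal cells, stromal cells were lower for Itga6 (−4.27), Itga3 (−3.39), Lama5 (−2.33) and Itgb4 (−1.96), and higher for Nid2 (3.35), Hspg2 (2.53), Itga9 (2.00) and Itga11 (1.73). Of the members with a mean of 5 FPKM, Lamb2 and Nid1 did not pass the test between basal and luminal cells (0.01 and 0.26), nor did Itga7 (−0.37) and Nid2 (−0.39). Agrn was highest in basal cells and did not pass between stromal and luminal cells (0.30), and Itgb5, a subunit of a vitronectin receptor, and Lamc1, the common gamma chain, did not pass between stromal and basal cells (−0.06 and 0.04).

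Members of intermediate level gave these group means (± SD; n = 4 for Lgr5-DTR stromal cells and n = 3 for each other group). Itgav, the alphaV subunit of vitronectin and latent TGF-beta receptors, averaged 41.5 ± 3.32 FPKM in Lgr5-DTR and 59.3 ± 5.50 FPKM in wild type basal cells, and 19.8 ± 9.18 FPKM in Lgr5-DTR and 11.9 ± 5.10 FPKM in wild type luminal cells. Itgb5 averaged 18.5 ± 4.03 FPKM in Lgr5-DTR and 28.4 ± 8.18 FPKM in wild type stromal cells, and 10.7 ± 1.87 FPKM in Lgr5-DTR and 13.4 ± 1.59 FPKM in wild type luminal cells. Itgav was thus highest in basal cells, and wild type basal cells were higher than luminal cells for Itgb5 as well, by 1.07 on the log2 scale. Lamb2, the beta2 chain, averaged 46.4 ± 16.1 FPKM in Lgr5-DTR and 59.6 ± 15.7 FPKM in wild type stromal cells, and 35.4 ± 6.51 FPKM in Lgr5-DTR and 23.0 ± 3.50 FPKM in wild type luminal cells. Lamc1 averaged 25.5 ± 7.71 FPKM in Lgr5-DTR and 39.0 ± 5.78 FPKM in wild type stromal cells, and 18.3 ± 4.57 FPKM in Lgr5-DTR and 10.5 ± 2.70 FPKM in wild type luminal cells. Lamc3 averaged 52.8 ± 19.1 FPKM in Lgr5-DTR and 65.5 ± 11.9 FPKM in wild type stromal cells, and 2.74 ± 0.759 FPKM in Lgr5-DTR and 1.90 ± 0.672 FPKM in wild type luminal cells. These laminin chains were present outside the hemidesmosomal set, Lamc1 in all 3 populations. Hspg2 averaged 8.92 ± 2.78 FPKM in Lgr5-DTR and 12.1 ± 1.56 FPKM in wild type stromal cells, and 4.97 ± 1.70 FPKM in Lgr5-DTR and 4.15 ± 0.278 FPKM in wild type basal cells. Nid2 was 6.80 to 14.7 FPKM in Lgr5-DTR and 11.7 to 20.1 FPKM in wild type stromal cells. Itga1 averaged 0.636 ± 0.246 FPKM in Lgr5-DTR and 1.51 ± 0.356 FPKM in wild type basal cells, and 5.93 ± 2.10 FPKM in Lgr5-DTR and 4.18 ± 1.48 FPKM in wild type luminal cells. Itga1 stood alone among these genes in being highest in luminal cells. Its span overlaps Pelo, so the division of reads between the 2 genes is uncertain. In wild type, Pelo was 7.53 to 11.8 FPKM in luminal, 5.58 to 6.80 FPKM in basal and 6.28 to 8.98 FPKM in stromal cells. Besides the 8 members that never reached 1 FPKM, Itga2b, Itga8, Itgb3 and Lama1 were tested in no comparison, with highest library values of 1.14, 1.20, 2.14 and 1.05 FPKM.

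Within each family a single gene usually led. Itga5 made up 88.5% of the summed alpha-subunit FPKM in Lgr5-DTR and 86.6% in wild type stromal cells, Itga3 56.1% and 57.6% in basal cells, and Itga6 33.8% and 41.6% in luminal cells. Itgb1, the beta1 subunit that pairs with many alpha chains, led the beta subunits in all 6 groups, with 67.8% to 83.8%. Lama2 led the laminin alpha chains in stromal cells, with 78.9% in Lgr5-DTR and 65.7% in wild type, and Lama5 led in luminal cells, with 68.7% and 63.9%. In basal cells Lama3 led in Lgr5-DTR (51.5%, with Lama5 at 47.0%) and Lama5 in wild type (62.2%, with Lama3 at 35.5%). Lamb1, Lamb3 and Lamb2 led the beta chains in stromal, basal and luminal cells of both genotypes, and Lamc3 led the gamma chains in stromal cells. These shares are per length and were not tested.

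**Figure D2:**
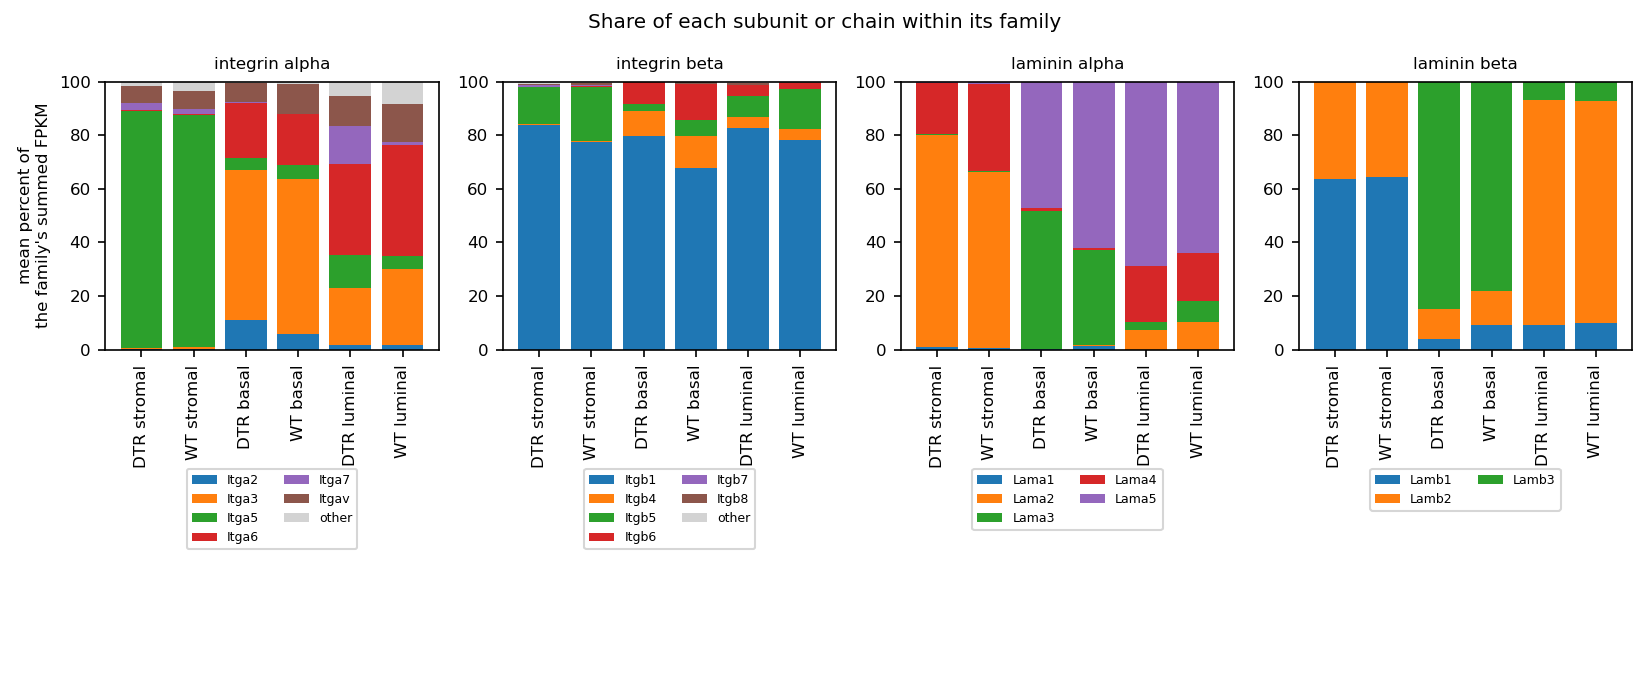
Mean share of each gene in the summed FPKM of its family (percent, vertical axis) in the 6 groups, Lgr5-DTR left of wild type within each population (DTR, Lgr5-DTR; WT, wild type). Itga5 fills most of the stromal alpha bars, and Itga7 appears as a band of 14.2% in the Lgr5-DTR luminal bar.

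In stromal cells no member passed the genotype test. Of 21 members tested, 0 were called by limma, and 7 had an unadjusted p under 0.05, where 1.17% of all 10689 genes were called, 0.0655% higher and 1.1% lower. The median member difference (Lgr5-DTR minus wild type) was −0.35 on the log2 scale, against −0.09 over all genes, and 14 of 21 were negative. The groups did not overlap for 5 members, 1 above and 4 below wild type, where 1.8% of all genes lay above and 9.39% below. Lama4, an alpha chain of laminins around vessels and muscle, was 10.8, 13.8, 6.58 and 14.0 FPKM in Lgr5-DTR and 23.2, 21.3 and 32.8 FPKM in wild type stromal cells. All Lgr5-DTR values lay below all wild type values, and the log2 difference was −1.15 ± 0.28 (SE, adjusted p = 0.0903). Itga9, a subunit that binds tenascin and osteopontin, was 1.72, 2.01, 0.835 and 1.35 FPKM in Lgr5-DTR and 3.70, 3.39 and 4.21 FPKM in wild type (−0.96 ± 0.24, adjusted p = 0.0954). Itga11, a collagen receptor subunit of fibroblasts, was 0.719 to 1.21 FPKM in Lgr5-DTR and 2.02 to 2.73 FPKM in wild type (−0.81, adjusted p = 0.134). Itga7 was 9.16, 11.9, 9.88 and 7.34 FPKM in Lgr5-DTR and 6.82, 4.31 and 4.02 FPKM in wild type (0.82, adjusted p = 0.190). Lamc1 had the fifth smallest p, with a mean of 25.5 ± 7.71 FPKM in Lgr5-DTR (SD, n = 4) and 39.0 ± 5.78 FPKM in wild type (SD, n = 3, log2 difference −0.62, adjusted p = 0.341). Without Lgr5-DTR stromal replicate 4, 1 member was called, lower.

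The abundant stromal members overlapped between genotypes. Itga5 was 299.9, 471, 505 and 189 FPKM in Lgr5-DTR and 228, 272 and 193 FPKM in wild type stromal cells (0.57 ± 0.31, adjusted p = 0.546). Nid1 was 101, 154, 97.4 and 85.4 FPKM in Lgr5-DTR and 128, 120 and 122 FPKM in wild type (−0.21 ± 0.22, adjusted p = 0.832). Itgb1 was 91.4 to 143 FPKM in Lgr5-DTR and 103 to 119 FPKM in wild type, a difference of 0.03 ± 0.20. Lama2, Lamb1, Lamb2, Lamc3, Nid2 and Hspg2 were each negative, between −0.17 and −0.49, and their libraries overlapped between genotypes. The fibroblast marker sums given above were lower in Lgr5-DTR, while the differences of Itga5 and Itgb1 were positive. The part of fibroblasts in these member values was not tested.

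In basal cells 6 of 22 members passed the genotype test, 5 lower and 1 higher in Lgr5-DTR, where 4.46% of all 9755 genes were called lower and 6.5% higher, 11% in all. The lower ones were Nid1, Itga9, Itgb8, Agrn and Lamb1, and the higher one was Itgb1. Itga9 and Itgb8 were tested only because their wild type libraries reached the filter, so a call for them could only be lower. The median member difference was −0.15, against 0.02 over all genes. The groups did not overlap for 2 members above and 9 below wild type, where 17.5% of all genes lay above and 13.7% below. The hemidesmosomal genes were not among the calls.

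Nid1 (mm10 chr13:13437602-13512275), which joins laminin to type IV collagen, was 3.04, 1.65 and 2.20 FPKM in Lgr5-DTR basal cells and 6.34, 5.71 and 6.13 FPKM in wild type basal cells. All Lgr5-DTR values were below 4 FPKM and all wild type values above 5 FPKM, and the log2 difference was −1.12 ± 0.20 (SE, limma adjusted p = 0.00993). Agrn (chr4:156165290-156197488) was 19.2, 10.7 and 12.3 FPKM in Lgr5-DTR and 28.2, 39.8 and 28.4 FPKM in wild type (−1.16 ± 0.23, adjusted p = 0.0161). Lamb1 (chr12:31265294-31329639), the beta1 chain, was 10.1, 4.87 and 5.61 FPKM in Lgr5-DTR and 11.7, 21.0 and 17.2 FPKM in wild type (−1.19 ± 0.29, adjusted p = 0.0330). The highest Lgr5-DTR value for Lamb1 stood close to the lowest wild type value. Itga9 (chr9:118606709-118901003) was 0.685, 0.149 and 0.131 FPKM in Lgr5-DTR and 2.71, 2.07 and 1.82 FPKM in wild type (−1.29 ± 0.23, adjusted p = 0.0104). Itgb8 (chr12:119162803-119238276), the beta subunit of another activator of latent TGF-beta, was 0.991, 0.439 and 0.784 FPKM in Lgr5-DTR and 2.20, 3.19 and 4.14 FPKM in wild type (−1.25 ± 0.23, adjusted p = 0.0123). Itga9 and Itgb8 were below 1 FPKM in every Lgr5-DTR basal library and met the filter through the wild type libraries alone. Both were low in level, where the log2(FPKM + 1) scale compresses fold differences and values are uncertain.

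Itgb1 (chr8:128685654-128733579) was 488, 683 and 720.2 FPKM in Lgr5-DTR and 430.4, 323 and 280.5 FPKM in wild type basal cells. All Lgr5-DTR libraries were above all wild type ones, the means differed 1.83-fold, and the log2 difference was 0.87 ± 0.22 (adjusted p = 0.0361). This call was lost with no filter on low values, with TMM scaling, with the status set as a covariate and with the replicate block. Itgb5 and Itgav, which form a vitronectin receptor, lay below wild type in every library without passing the test, at −0.69 (adjusted p = 0.0535) and −0.50 (adjusted p = 0.0568). Among the hemidesmosomal and laminin genes, Lama3 was 20.2, 21.3 and 24.9 FPKM in Lgr5-DTR and 15.9, 18.9 and 14.7 FPKM in wild type (0.40, adjusted p = 0.139), and Lama5 16.1 to 23.6 FPKM in Lgr5-DTR and 23.8 to 34.4 FPKM in wild type (−0.50, adjusted p = 0.138). Lamb3, Itga3, Itga6 and Itgb6 differed by 0.04 ± 0.16, 0.02 ± 0.21, 0.14 ± 0.17 and −0.13 ± 0.34 on the log2 scale. Itga2 was 34.7, 74.1 and 85.2 FPKM in Lgr5-DTR and 44.4, 29.7 and 23.5 FPKM in wild type. The first Lgr5-DTR library fell within the wild type values, and the gene did not pass the test (0.92, adjusted p = 0.132).

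Markers of several cell types differed between the basal libraries. The fibroblast sum was 570 to 1072 FPKM in Lgr5-DTR and 988 to 1221 FPKM in wild type basal cells, with 2 of 3 tested markers called lower, and the smooth muscle sum was 257 to 331 FPKM in Lgr5-DTR and 431 to 488 FPKM in wild type, with 2 of 4 called lower. None of the fibroblast or smooth muscle markers was at 0 in all libraries of either group, and 6 to 8 of the 10 of each list stayed below 1 FPKM in every library of a group. Most of the fibroblast sum was Dcn (means of 426 FPKM in Lgr5-DTR and 818 FPKM in wild type) and Gsn (316 and 297 FPKM). Most of the smooth muscle sum was Smtn (281 and 430 FPKM). Macrophage and myeloid markers summed to 22.2 to 31.1 FPKM in Lgr5-DTR and 16.9 to 25.8 FPKM in wild type basal cells, with 3 of 6 called higher. Endothelial markers summed to 26.0 to 48.7 FPKM in Lgr5-DTR and 12.5 to 21.3 FPKM in wild type basal cells, with 8 of 8 tested positive and none called. Of the luminal markers 3 of 10 were called higher in Lgr5-DTR basal cells, and of the basal markers 2 of 10 were called higher and 3 lower, with sums of 10417 to 13393 FPKM in Lgr5-DTR and 12144 to 15453 FPKM in wild type. The part of these markers' cells in the member differences was not tested. Nid1 remained called without any 1 library other than wild type basal replicate 3, and Itga9 was lost when replicate 2 of either genotype was left out. Itgb8 was lost on leaving out replicate 2 of either genotype or replicate 3 of wild type, and Agrn, Lamb1 and Itgb1 without Lgr5-DTR replicates 2 or 3 or wild type replicates 2 or 3. Leaving out replicate 2 of either genotype, or replicate 3 of wild type, gave 1 called member, leaving out replicate 3 of Lgr5-DTR gave 3, and leaving out replicate 1 of Lgr5-DTR gave 9. With no filter on low values Agrn and Lamb1 were lost, and with the replicate block all 6 were.

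**Figure D3:**
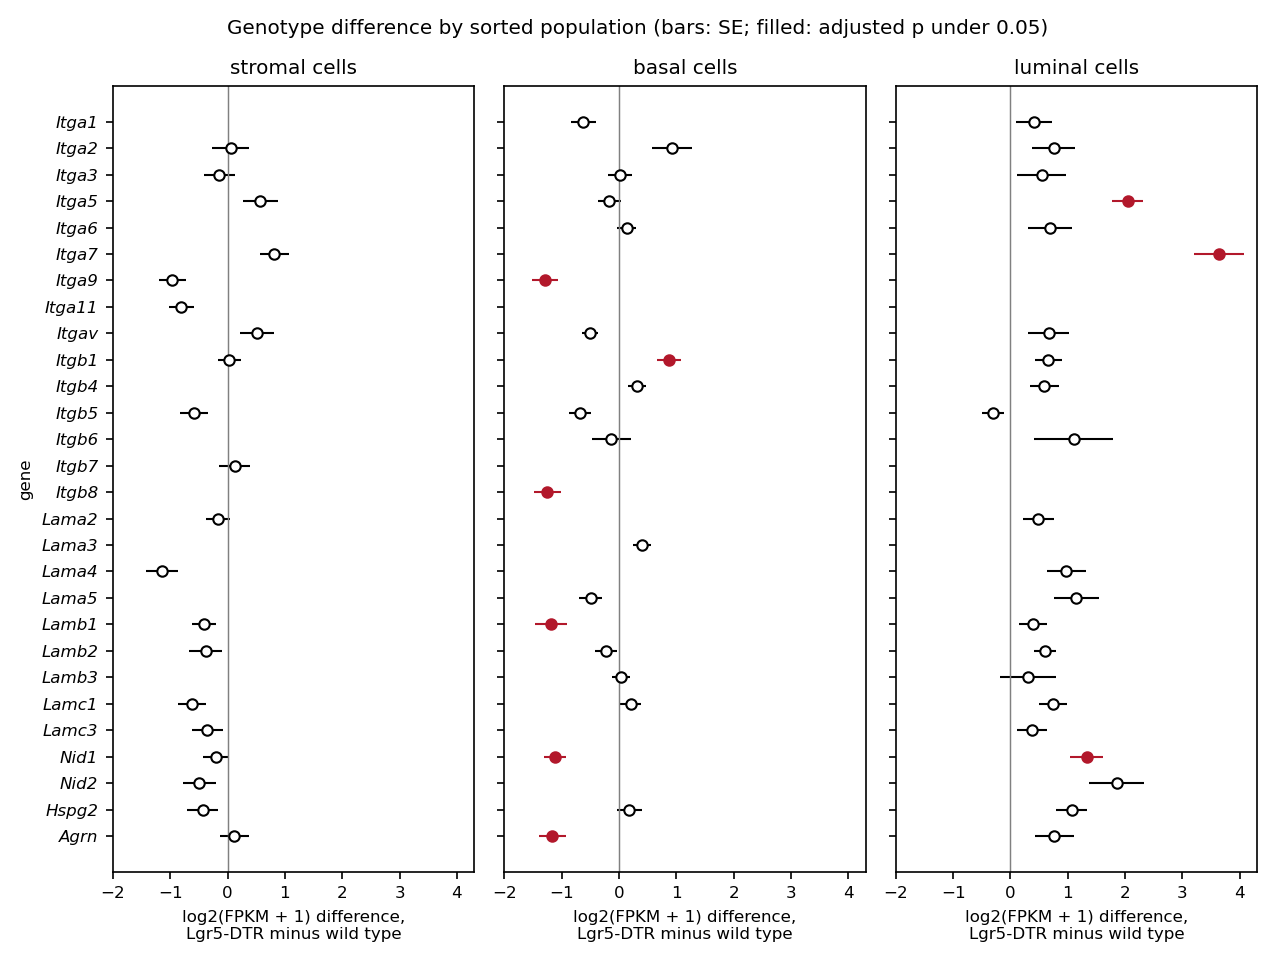
Difference of Lgr5-DTR minus wild type on the log2(FPKM + 1) scale (horizontal axis, bars show the SE) for the members tested in stromal, basal or luminal cells. Filled points passed the adjusted p of 0.05: none in stromal cells, 6 in basal cells and 3 in luminal cells, where 22 of the 23 points drawn lie right of 0.

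In luminal cells 3 of 24 members passed, all higher in Lgr5-DTR: Itga7, Itga5 and Nid1. Of all 10524 genes tested, 2.62% were called higher and 0.513% lower, 3.14% in all. Nearly all members were positive, 23 of 24, with a median of 0.72 against 0.10 over all genes. The all-gene median in luminal cells was −0.04 after TMM scaling and likewise after quantile normalization, and 23 of 24 members stayed positive in each. The groups did not overlap for 9 members, all above wild type, where 17.4% of all genes lay above and 9.63% below.

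Itga7 (chr10:128933813-128958284), the laminin-binding alpha7 subunit, was 40.2, 10.1 and 22.6 FPKM in Lgr5-DTR luminal cells and 0.607, 1.26 and 0.528 FPKM in wild type luminal cells. The lowest Lgr5-DTR library was far above the highest wild type one, the means differed 30.4-fold, and the log2 difference was 3.64 ± 0.43 (SE, limma adjusted p = 0.00767). Its overlapping neighbour Mettl7b was listed at 0 in all luminal libraries. Itga5 (chr15:103344286-103366748) was 27.0, 12.4 and 20.5 FPKM in Lgr5-DTR and 4.66, 3.51 and 3.48 FPKM in wild type, a 5.13-fold difference of means (2.04 ± 0.27, adjusted p = 0.00817). Nid1 was 19.1, 8.44 and 16.1 FPKM in Lgr5-DTR and 4.22, 4.87 and 5.68 FPKM in wild type (2.95-fold, 1.33 ± 0.28, adjusted p = 0.0401). In all 3 genes Lgr5-DTR replicate 1 was the highest library and replicate 2 the lowest of its group.

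Hspg2, perlecan, was 5.11, 2.50 and 3.91 FPKM in Lgr5-DTR and 0.984, 1.04 and 1.83 FPKM in wild type luminal cells and did not pass (1.06 ± 0.28, adjusted p = 0.0687). Nid2, nidogen-2, was 6.16, 3.49 and 4.25 FPKM in Lgr5-DTR, against 2.61 FPKM in 1 wild type library and a listing at 0 in the other two (1.85 ± 0.48, adjusted p = 0.0769). Its span overlaps 2700060E02Rik, which was 28.8 to 46.2 FPKM in Lgr5-DTR and 47.7 to 60.7 FPKM in wild type luminal cells, so its level is uncertain. Lamb2, Lamc1, Itgb1 and Itgb4 were also above wild type in every library, by 0.60, 0.74, 0.66 and 0.59, with adjusted p of 0.118 to 0.211. Lama4 was 7.58, 2.64 and 4.94 FPKM in Lgr5-DTR and 2.21, 2.64 and 1.11 FPKM in wild type (0.97, adjusted p = 0.140), and Lama5 was 24.7, 22.3 and 8.66 FPKM in Lgr5-DTR and 10.3, 4.88 and 7.04 FPKM in wild type (1.14, adjusted p = 0.139). Itgb5 was the member with a negative difference (−0.30 ± 0.19).

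The Lgr5-DTR luminal libraries also differed from wild type in the markers of several other cell types. Sox10, a master regulator of the glial lineage, was 64.0, 20.3 and 30.5 FPKM in Lgr5-DTR and 5.24, 6.23 and 9.56 FPKM in wild type luminal cells. Cdh19, another Schwann lineage gene, was 22.3, 9.86 and 22.9 FPKM in Lgr5-DTR and 4.81, 9.10 and 11.1 FPKM in wild type. In the stromal and basal libraries Sox10 and Cdh19 stayed below 0.3 FPKM. The 10 Schwann cell markers summed to 184 to 364 FPKM in Lgr5-DTR and 99.1 to 139 FPKM in wild type luminal cells, none was listed at 0 throughout a luminal group, and 1 of 8 tested was called higher. The same 10 markers summed to 29.2 to 38.6 FPKM in Lgr5-DTR and 27.3 to 34.1 FPKM in wild type basal cells. Fibroblast markers in luminal libraries summed to 187 to 280.3 FPKM in Lgr5-DTR and 184 to 232 FPKM in wild type (3 of 5 called higher). Macrophage and myeloid markers summed to 33.7 to 152 FPKM in Lgr5-DTR and 23.1 to 29.6 FPKM in wild type (1 of 8 called higher), and pericyte markers to 42.0 to 90.7 FPKM in Lgr5-DTR and 17.9 to 33.2 FPKM in wild type (2 of 7 called higher). Endothelial markers summed to 20.4 to 34.3 FPKM in Lgr5-DTR and 13.9 to 22.0 FPKM in wild type (1 of 3 called higher). The luminal marker sum was lower in every Lgr5-DTR library than in any wild type one, and 1 of 10 luminal markers was called lower. Pbsn, a large part of that sum, averaged 8849 FPKM in Lgr5-DTR and 19612 FPKM in wild type. Of the 10 luminal markers 6 were positive and 4 negative, with a median of 0.34 against 0.10 over all genes. Of the 11 marker lists, 6 had their highest Lgr5-DTR luminal sum in replicate 1 and their lowest in replicate 2, the order of the 3 called members: Schwann cell, pericyte, macrophage and myeloid, endothelial, fibroblast and lymphocyte. The part of these cell types in the luminal results was not tested.

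Basal markers differed between the luminal libraries, and basal-type members are given beside them. Itgb6 was 10.5, 6.25 and 1.49 FPKM in Lgr5-DTR and 5.27, 0.630 and 1.07 FPKM in wild type (1.10 ± 0.68, adjusted p = 0.372). The summed basal markers of the same libraries were 1062, 851 and 395 FPKM in Lgr5-DTR and 704, 203 and 267 FPKM in wild type. In each genotype the library with the highest basal marker sum was also the highest for Itgb6, Itga3 and Lamb3. Below the highest, the wild type order matched that of the sums for Itgb6 but not for Itga3 or Lamb3, and Itgb4, at 2.97, 3.45 and 4.42 FPKM in wild type, was lowest where the sum was highest. The part of basal cells in these values was not tested.

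**Figure D4:**
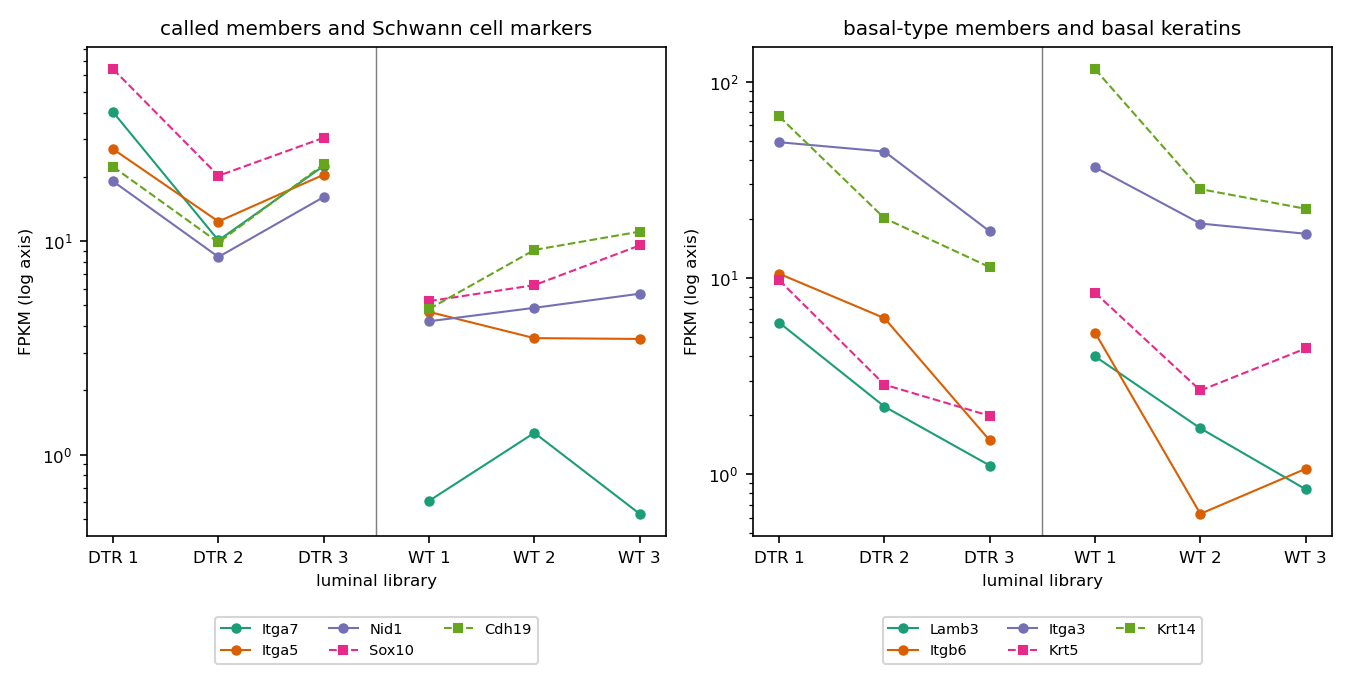
FPKM (log axis) in each of the 6 luminal libraries, Lgr5-DTR (DTR) left of wild type (WT), for the 3 called members beside Schwann cell markers (left panel) and for basal-type members beside basal keratins (right panel). Lines join the values of 1 gene within a genotype and carry no order in time. In Lgr5-DTR replicate 2 Itga7, Itga5 and Nid1 are lowest of their group, as are Sox10 and Cdh19. The sums of 6 of the 11 marker lists were highest in replicate 1 and lowest in replicate 2. Those of smooth muscle and erythrocyte markers were lowest in replicate 2 as well, without being highest in replicate 1.

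Itga7 kept its luminal call without any 1 library other than wild type luminal replicate 3, and Itga5 was lost without wild type replicates 2 or 3. Nid1 kept its call in 2 of the 6 fits that left out a library, those without Lgr5-DTR replicate 2 or 3, and lost it with quantile normalization. The number of members called in luminal cells was 0 without wild type replicate 3 and 5 without Lgr5-DTR replicate 2 or 3, and with no filter on low values it was 0.

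The genotype difference itself differed between basal and luminal cells for 4 of 19 members tested in both, all more negative in basal cells. Over all 9098 genes, 3.18% were called more negative and 1.09% more positive, 4.26% in all. Nid1 was lower in Lgr5-DTR basal cells and higher in Lgr5-DTR luminal cells, and the difference between those 2 contrasts was −2.45 (limma adjusted p = 0.00506). For Itga5, which differed by −0.17 in basal and 2.04 in luminal cells, it was −2.21 (adjusted p = 0.00626). For Agrn (−1.16 and 0.77) it was −1.93 (adjusted p = 0.0320), and for Lamb1 (−1.19 and 0.39) −1.58 (adjusted p = 0.0362). The Nid1 and Itga5 calls held in each of the 12 fits that left out a library, whereas Agrn held in 6 and Lamb1 in 5. Agrn and Lamb1 were both lost without Lgr5-DTR basal replicates 2 or 3, Lgr5-DTR luminal replicate 1, wild type basal replicates 2 or 3 or wild type luminal replicate 2, and Lamb1 also without wild type luminal replicate 3. Both were lost with no filter on low values, and Lamb1 with quantile normalization. These are the 4 genes whose promoters are printed above.

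Between stromal and luminal cells the genotype difference differed for 4 of 18 members, all more negative in stromal cells, where 2.43% of all 9255 genes were called more negative, 0.0756% more positive and 2.51% in all. They were Itga7 (−2.82, adjusted p = 0.00732), Lama4 (−2.12, adjusted p = 0.0219), Nid1 (−1.54, adjusted p = 0.0358) and Nid2 (−2.34, adjusted p = 0.0424). Itga7 was positive in both populations, by 0.82 and 3.64, while Lama4 was −1.15 in stromal and 0.97 in luminal cells. Itga7 held in each of the 13 fits without a library. Lama4 was lost without Lgr5-DTR luminal replicate 1, wild type luminal replicate 3 or wild type stromal replicate 3. Nid1 held in 3 of the 13, those without Lgr5-DTR stromal replicates 2 or 4 or Lgr5-DTR luminal replicate 2, and Nid2 in 2, those without Lgr5-DTR stromal replicate 2 or wild type luminal replicate 2. Lama4, Nid1 and Nid2 were lost with no filter and with quantile normalization, Nid1 and Nid2 with TMM scaling, and Nid2 with a pseudocount of 0.1 and with the status set as a covariate. Between stromal and basal cells none of 14 members was called by limma (6 at an unadjusted p under 0.05), where 0.891% of all 8980 genes were called more positive, 2.09% more negative and 2.98% in all.

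**Figure D5:**
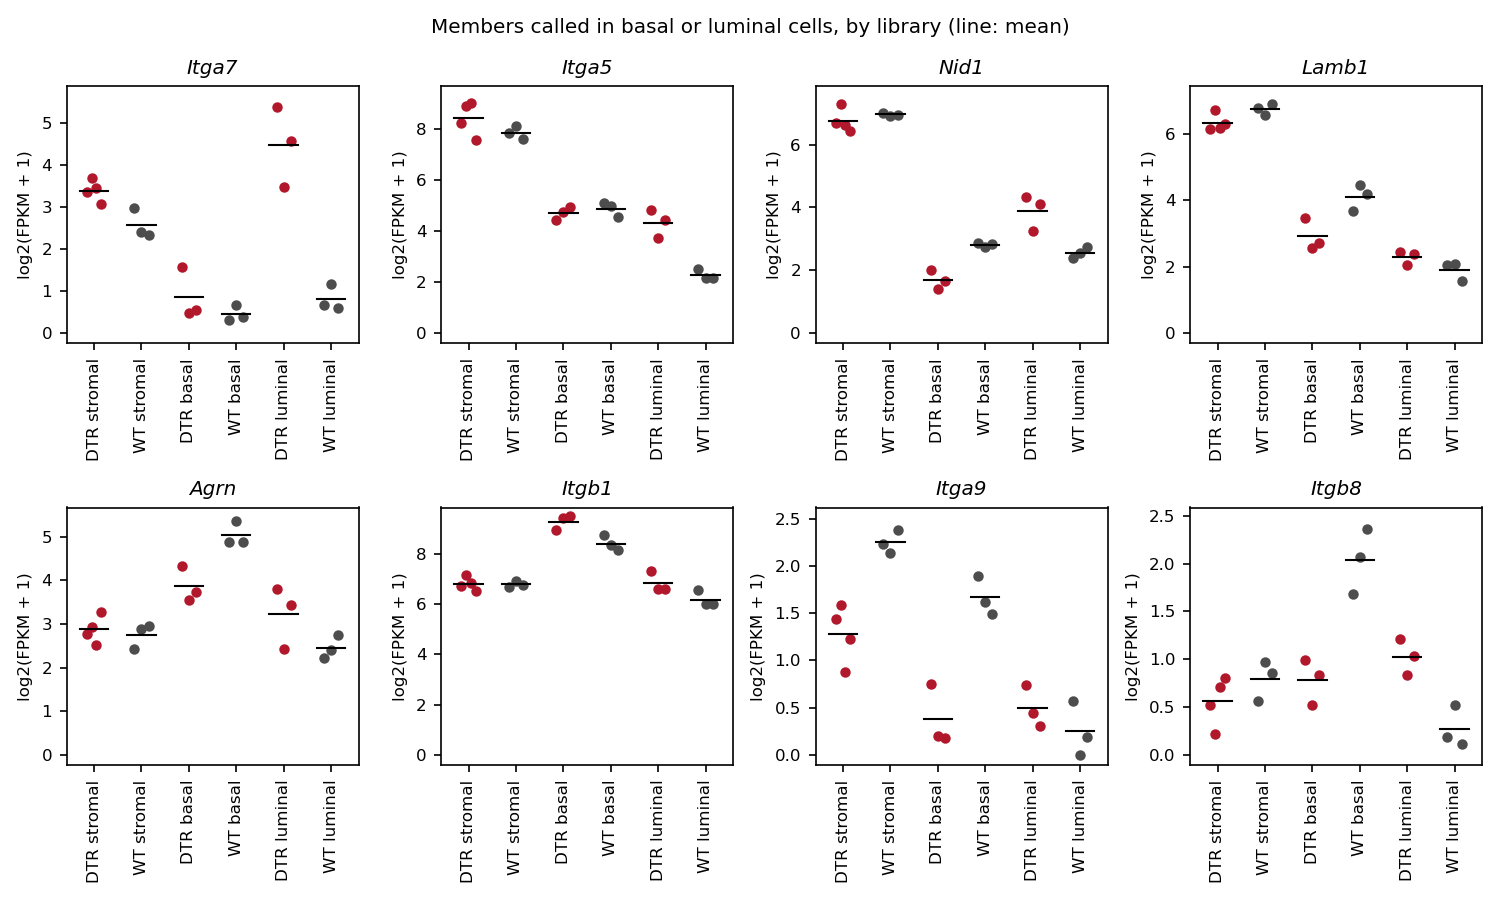
Level of the 8 members called in basal or luminal cells, as log2(FPKM + 1), in every library (points, Lgr5-DTR red and left of wild type in grey) with the mean of each group (line). Nid1 is lower in Lgr5-DTR than wild type basal cells and higher in Lgr5-DTR than wild type luminal cells, and Itga7 in Lgr5-DTR luminal cells lies above its level in the stromal groups on average.

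Other basement membrane genes were taken as a list of 28. In basal cells 9 of 15 tested were lower in Lgr5-DTR and none higher, with a median of −1.01 against 0.02 over all genes. They were Col4a1, Col4a2, Col4a3 and Col4a5, chains of type IV collagen, with Col18a1, Fbln2, Sparc, Egfl6 and Smoc2. Col4a1 was 18.9, 8.37 and 10.7 FPKM in Lgr5-DTR and 36.0, 38.7 and 31.3 FPKM in wild type basal cells (−1.48 ± 0.26, adjusted p = 0.0103), and Col4a3 differed by −1.69 (adjusted p = 0.00595), Fbln2 by −1.97 and Sparc, a collagen-binding matricellular protein, by −2.72. In luminal cells 5 of 14 were higher and none lower, with a median of 0.82 against 0.10. They were Col4a1 (35.7, 22.6 and 25.5 FPKM in Lgr5-DTR and 10.2, 12.1 and 12.5 FPKM in wild type, 1.18 ± 0.20, adjusted p = 0.0207), Sparc (1.47), Pxdn, which cross-links type IV collagen (2.03), Col4a2 (1.31) and Col18a1 (1.63). Col4a1, Col4a2, Col18a1 and Sparc were thus lower in Lgr5-DTR basal and higher in Lgr5-DTR luminal cells, as Nid1 was. In stromal cells 3 of 22 were lower, Ntn1 (−1.45, adjusted p = 0.00800), Fbln2 (−1.24) and Smoc1 (−1.42), while Col4a1 was 81.7 to 186 FPKM in Lgr5-DTR and 93.1 to 111 FPKM in wild type. Over all genes tested, 4.46% were called lower in basal, 2.62% higher in luminal and 1.1% lower in stromal cells.

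Of the 14 hemidesmosome and laminin-binding partners, 4 were higher and 1 lower of 14 tested in Lgr5-DTR basal cells. Over all genes tested there, 6.5% were called higher and 4.46% lower. Plec, plectin, which ties integrin beta4 to keratin, was 62.1, 60.0 and 75.8 FPKM in Lgr5-DTR and 27.7, 30.5 and 30.7 FPKM in wild type (1.12 ± 0.15, adjusted p = 0.00304). Ddr1, a collagen receptor, differed by 0.79, Cd44, a hyaluronan receptor, by 1.65 and Col17a1, a transmembrane collagen of hemidesmosomes, by 0.98 (adjusted p = 0.0359), the last named after its value was seen. Dst, which holds the hemidesmosomal plaque protein BPAG1, was lower, at 58.5, 40.2 and 44.6 FPKM in Lgr5-DTR and 81.1, 117 and 117 FPKM in wild type (−1.12 ± 0.20, adjusted p = 0.0111). In luminal cells Cd44 was higher (43.6, 27.7 and 18.3 FPKM in Lgr5-DTR and 8.59, 6.84 and 7.18 FPKM in wild type, 1.78, adjusted p = 0.0164), and Sdc1, Sdc4 and Sgce did not pass (2.15, 1.11 and 0.86). In stromal cells limma called 0 of 13 (2 at an unadjusted p under 0.05), with the smallest p for Sgcb (−0.94, adjusted p = 0.0850), followed by Bcam, Sgce and Dag1 (0.80, −0.43 and −0.46).

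Of the 39 genes of the adhesion plaque behind integrins, 4 of 33 tested passed in basal cells: Ptk2, focal adhesion kinase (1.16 ± 0.28, adjusted p = 0.0326), and Fermt1, kindlin-1 (0.55), were higher in Lgr5-DTR, and Parva, parvin (−0.78, adjusted p = 0.0112), and Trip6 (−0.64) lower. That count is near the share of all genes called in basal cells, 11%. The share was 3.14% in luminal and 1.17% in stromal cells. In luminal cells limma called 0 of 35 and 14 had an unadjusted p under 0.05, with 33 of 35 positive and a median of 0.56 against 0.10 over all genes, and Lpp, Fermt2, Lims2 and Flna had the smallest p (0.78, 0.59, 1.31 and 0.98, adjusted p of 0.0687 to 0.101). In stromal cells limma called 0 of 32 and 5 had an unadjusted p under 0.05. The smallest were those of Bcar1 (1.03), Lims2 (−1.09), Tns1 (−0.73) and Nedd9 (−0.64).

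Of 29 integrin ligands other than laminins, 5 of 23 were lower in Lgr5-DTR stromal cells: Postn, periostin (9.29, 9.74, 4.68 and 5.88 FPKM in Lgr5-DTR and 42.5, 32.8 and 41.6 FPKM in wild type, −2.29 ± 0.27, adjusted p = 0.00216), Ltbp1 (−2.10), Fn1, fibronectin (−1.37), Vtn, vitronectin (−1.96), and Tgfb2 (−1.42). The last of these was the fifth by p and was named after its value was seen. In basal cells 1 of 15 was higher, Ltbp1 (1.86), and 4 were lower, Cyr61 (−1.56, adjusted p = 0.00400), Spp1 (−1.57), Ctgf (−3.01) and Icam1 (−0.66), the last named after its value was seen. In luminal cells 4 of 17 were higher: Tnc, tenascin-C, was 99.8, 29.2 and 53.3 FPKM in Lgr5-DTR and 5.15, 6.14 and 4.78 FPKM in wild type (3.12 ± 0.38, adjusted p = 0.00817), Mfge8 differed by 1.37, Tgfb1 by 1.19 and Postn by 2.51. Fn1, the main ligand of alpha5-beta1, stayed at or below 0.819 FPKM in every luminal library. Over all genes tested, 1.1% were called lower in stromal cells and 2.62% higher in luminal cells. In basal cells 6.5% were called higher and 4.46% lower.

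Most members had a single transcript in the tables, and 10 had several. For Itga6 the longer transcript, of 6018 bases, held 77.7% of the gene's FPKM in Lgr5-DTR and 79.9% in wild type basal cells, and 63.3% in Lgr5-DTR and 68.4% in wild type luminal cells, and the shorter one of 5888 bases made up the rest. For Itga3 the longest transcript, of 4860 bases, held 90.1% in Lgr5-DTR and 88.7% in wild type basal cells. Itgb5, Itgb6 and Itga9 were each listed wholly as 1 of their transcripts. These shares are estimates of the authors' transcript model and were not tested.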

How the data were processed

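RNA of cells sorted from anterior prostates was amplified with a low-input full-length cDNA kit and sequenced on an Illumina HiSeq instrument, per the labels' protocols. The authors deposited 1 table of FPKM values per library, with 34535 RefSeq transcripts each, per the file headers, and the submitters' processing notes name TopHat2, Cufflinks and mm10. The tables also give a coverage value per transcript, per the file headers, from which the gigabases on transcripts were summed as a measure of depth. Read counts were not used here, so no counting interval is given.

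FPKM were summed per gene symbol. Genes were tested where at least 3 libraries of the population reached 1 FPKM (3 of the 9 in the wild type fit, both populations in the tests of a difference between populations). Differences are on the log2(FPKM + 1) scale, from limma 3.58.1 (R 4.3.3) with a mean-variance trend and robust moderation, and p-values were adjusted by Benjamini-Hochberg over all genes tested, with a threshold of 0.05. Genotype was fitted within each population, and the 9 wild type libraries in 1 fit. Genes with a failed or too deep quantification status in a population were left out of it, and no member was among them. In 7 libraries 424 transcripts carried a low-data status, in the other 12 none, and this status set was tried as a covariate. The tests were checked on simulated data.

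The members and the lists of markers and pathway genes were chosen with earlier results of these data known. Named are all members past the threshold, at least the 5 members of smallest p in each genotype comparison, up to 12 of the largest differences between wild type populations and up to 4 genes of smallest p from each pathway list. Alternatives were a pseudocount of 0.1, no filter, a filter at 5 FPKM, TMM and quantile scaling, keeping the status genes, the status set, a replicate block and leaving out each library. The values of 1 member and 1 Schwann cell marker are not reported here, although both stay in the counts and sums.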

Additional observations from a re-analysis of the deposited data

Results flagged for a closer look

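The genotype difference of 8 member contrasts differed between populations by a test of the difference itself (limma interaction, adjusted over all genes tested). Between basal and luminal cells, the difference of differences on the log2 scale was −2.45 for Nid1, −2.21 for Itga5, −1.93 for Agrn and −1.58 for Lamb1. Between stromal and luminal cells it was −2.82 for Itga7, −2.12 for Lama4, −1.54 for Nid1 and −2.34 for Nid2. In each, Lgr5-DTR minus wild type was higher in luminal cells. There the marker sums of Schwann cells, pericytes, and macrophages and myeloid cells were also higher in Lgr5-DTR. Of the fibroblast markers 3 of 5 were called higher in luminal cells, and of the endothelial ones 1 of 3. The part of these cell types was not tested.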

How the results depend on the processing

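No called member difference changed sign under the alternatives tried. Of 3385 single-member values under alternatives, 3159 kept their sign and their side of the threshold, 109 lost a call, 61 gained one and 56 changed sign. Those 56 belonged to 20 differences, none called, of at most 0.39 on the log2 scale. In stromal cells the count of members called, 0, became 5 with the replicate block. In basal cells the count of 6 became 3 with no filter and 0 with the replicate block. In luminal cells the count of 3 became 0 with no filter, 7 with the status set as covariate and 7 with the replicate block. For the difference between basal and luminal cells, 4 became 7 with the status set. For that between stromal and basal cells, 0 became 1 with no filter, 1 with TMM scaling and 1 with the replicate block. For that between stromal and luminal cells, 4 became 1 with no filter, 2 at 5 FPKM, 2 with TMM scaling and 1 with quantile normalization. The cause of these changes was not tested.

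With 1 library left out, the counts ranged over 0 to 1 in stromal cells, 1 to 9 in basal cells and 0 to 5 in luminal cells. They ranged over 23 to 23, 24 to 25 and 22 to 24 in the wild type comparisons of basal with luminal, stromal with basal and stromal with luminal cells. For the differences between populations they ranged over 2 to 6 (basal and luminal; 2 without Lgr5-DTR basal replicates 2 or 3, Lgr5-DTR luminal replicate 1, wild type basal replicates 2 or 3 or wild type luminal replicate 2, and 6 without wild type luminal replicate 1), 0 to 2 (stromal and basal; 2 without Lgr5-DTR basal replicate 1 and 1 without Lgr5-DTR stromal replicate 4) and 1 to 6 (stromal and luminal; 1 without Lgr5-DTR luminal replicate 1, wild type luminal replicate 3 or wild type stromal replicate 3, 2 without Lgr5-DTR stromal replicates 1 or 3 or wild type stromal replicates 1 or 2, and 6 without Lgr5-DTR stromal replicate 2).

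The uncalled differences of Lgr5-DTR minus wild type that changed sign with 1 library left out ranged, in stromal cells, over −0.0436 to 0.24 (Agrn), −0.15 to 0.24 (Itga2), −0.29 to 0.015 (Itga3), −0.0885 to 0.13 (Itgb1) and −0.0694 to 0.32 (Itgb7). In basal cells they ranged over −0.0434 to 0.32 (Hspg2), −0.12 to 0.18 (Itga3), −0.44 to 0.23 (Itgb6) and −0.0761 to 0.11 (Lamb3), and in luminal cells over −0.17 to 0.69 (Lamb3). In wild type they ranged over −0.28 to 0.0786 (Itgb5) and −0.0737 to 0.11 (Lamc1) for stromal minus basal cells, and −0.12 to 0.17 (Lamb2) and −0.70 to 0.23 (Nid2) for basal minus luminal cells. For the differences between populations they ranged over −0.14 to 0.55 (Itga2) and −0.65 to 0.20 (Lamb3) for basal minus luminal, −0.0363 to 0.32 (Itgb5) and −0.35 to 0.0401 (Lamb2) for stromal minus basal, and −0.46 to 0.18 (Itgav) for stromal minus luminal. With quantile normalization the sign changed for Itga3 in stromal (0.0485) and basal cells (−0.0365), Lamb3 in basal cells (−0.0108), wild type Itgb5 (0.0076), and the population differences of Lamb3 (0.0005), Itga3 (0.0754, stromal minus basal) and Itgav (0.0273). It changed with the status set for stromal Itga3 (0.0151) and basal Lamb3 (−0.0358), with TMM scaling for wild type Lamc1 (−0.0597) and Itgav (0.0509), with a pseudocount of 0.1 for Itga2 (−0.13, basal minus luminal) and with the replicate block for stromal Agrn (−0.0182).

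Sample numbers in the labels did not meet the rule for pairing the genotypes, a correlation above 0.1 in every pair. Same-numbered libraries deviated together with r of 0.38, 0.49 and −0.05 in stromal, −0.53, −0.23 and −0.40 in basal and 0.38, −0.12 and 0.26 in luminal cells, and 5 of 6, 0 of 6 and 3 of 6 libraries correlated best with their own number, which in stromal cells is a hint of pairing from the data. A second number in the labels is shared between populations: in wild type its r was 0.21, −0.02 and 0.18 for basal with luminal cells, 0.37 for stromal with basal and 0.14 for stromal with luminal cells. The labels do not say what that number marks, and the comparisons of populations treat libraries that share it as independent. As a random replicate block (estimated correlation 0.18 in wild type, 0.13, 0.52 and 0.17 for the differences of basal with luminal, stromal with basal and stromal with luminal cells) it gave 23, 25 and 25 called members in wild type and 5, 1 and 5 for the differences. Depth beyond the coverage sums is unknown, which limits members near 1 FPKM.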
